A study of Homo sapiens with 32 samples.

Results

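The HOX genes encode homeodomain transcription factors that assign positions along the body axis. They lie in 4 clusters, HOXA to HOXD, in which the genes are numbered by paralog group and stand in the order in which they are switched on in the embryo. The clusters are rich in CpG, and in cells that do not use them they are held silent by Polycomb proteins, which are opposed by activators such as KMT2A. Uracil enters DNA in place of thymine when thymidylate synthesis is blocked, and is normally cut out by uracil-DNA glycosylases. The question addressed here was where in the HOX clusters uracil-enriched DNA was found in human cells with and without drugs that block thymidylate synthesis.

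The members were 38 HOX genes, 10 each in HOXA and HOXB and 9 each in HOXC and HOXD, out of 20033 protein-coding genes, together with the 4 stretches from the first to the last member of each cluster, called spans here. On GRCh38, the HOXA span was chr7:27100354-27200091, the HOXB span chr17:48528526-48728750, the HOXC span chr12:53938831-54056030 and the HOXD span chr2:176092721-176190907. HOXB13 stood 98404 bp away from HOXB9, so much of the HOXB span holds no member. Of the 38 gene bodies, 22 shared bases with another member, for example HOXA3 with HOXA4, HOXA5 and HOXA6, and their values are not independent.

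U-DNA-Seq sequences DNA pulled down with a catalytically inactive, FLAG-tagged uracil-DNA glycosylase sensor beside its input. The data were 14 enriched libraries of HCT116 cells from 7 conditions in 2 biological replicates, and 1 library of K562, a myelogenous leukemia line. HCT116 is a colorectal carcinoma line deficient in mismatch repair (MMR). WT cells were untreated HCT116. NT_UGI cells carried UGI, an inhibitor of uracil-DNA glycosylase that was brought in with EGFP by a retrovirus and kept by sorting for green cells. The 5FdUR_UGI cells were the same cells given 20 µM 5-fluoro-2'-deoxyuridine (5FdUR), and the RTX_UGI cells were given 100 nM raltitrexed (RTX), each for 48 h. The ending MMR marks the same 3 settings in an MMR proficient HCT116 line with an added chromosome 3. Every drug-treated library thus came from cells that express UGI, and UGI was absent from WT and K562. The 8 drug-treated and the 6 non-treated HCT116 libraries were compared as classes. The value used throughout is the covered share, the percent of the bases of a gene body or span that lie inside the uracil-enriched regions of a library. A share of 0% means that no stretch passed the threshold set for that library. In such bulk DNA, fewer cells with uracil and less uracil per cell cannot be told apart. The authors state that the method detects fluorouracil as well as uracil, and that 5FdUR also leads to fluorouracil in DNA. After 5FdUR, uracil and fluorouracil cannot be told apart here. The regions covered between 10.9% and 11.3% of the known genome in non-treated libraries and between 17.1% and 18.9% in drug-treated ones, with thresholds of 0.25 to 0.33 and of 0.13 to 0.27 on the log2 scale. The lowest of these thresholds, 0.13, belonged to replicate 2 of 5FdUR_UGI_MMR. That library had the lowest covered share of HOXA, HOXB and HOXC among the drug-treated libraries. The next lowest was replicate 1 of the same condition in HOXA and HOXB, and RTX_UGI_MMR replicate 1 in HOXC. Results that rest on 5FdUR_UGI_MMR replicate 2 are also given without it.

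The DNA behind the main contrast can be shown by 3 stretches of 200 bases, each the middle of the longest exon-free piece of a segment called in all 4 libraries of a drug. They are given on the plus strand of GRCh38 with every T in capitals, since T is the base that uracil replaces. The HOXD stretch is chr2:176148702-176148901, inside the body of HOXD3, and lay in regions of all 4 5FdUR libraries and of no RTX or non-treated library. The HOXA stretch is chr7:27191121-27191320, between HOXA11 and HOXA13 in an intron of a non-coding gene, and the HOXC stretch chr12:54043635-54043834, inside HOXC4. These lay in regions of all 4 RTX libraries, of 3 of the 4 5FdUR libraries, and of no non-treated library.
HOXD: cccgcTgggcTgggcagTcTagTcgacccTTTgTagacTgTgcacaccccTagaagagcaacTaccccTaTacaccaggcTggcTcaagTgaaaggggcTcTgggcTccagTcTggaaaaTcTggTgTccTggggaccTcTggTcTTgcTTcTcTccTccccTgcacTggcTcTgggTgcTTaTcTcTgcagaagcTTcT
HOXA: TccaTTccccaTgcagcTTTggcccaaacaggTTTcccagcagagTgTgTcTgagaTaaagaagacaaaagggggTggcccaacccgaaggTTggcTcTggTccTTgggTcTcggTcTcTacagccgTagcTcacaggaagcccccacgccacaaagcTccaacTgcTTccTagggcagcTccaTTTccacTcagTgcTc
HOXC: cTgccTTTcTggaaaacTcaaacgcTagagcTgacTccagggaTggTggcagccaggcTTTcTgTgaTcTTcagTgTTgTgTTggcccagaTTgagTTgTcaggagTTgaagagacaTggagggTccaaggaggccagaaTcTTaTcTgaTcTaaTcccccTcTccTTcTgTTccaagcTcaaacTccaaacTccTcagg
T made up 25.5% of the HOXD stretch, 21.0% of the HOXA stretch and 26.5% of the HOXC stretch.

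Without drug, the HOX clusters lay almost wholly outside uracil-enriched regions. In the 6 non-treated HCT116 libraries, 37 of the 38 members had no region at all, where 56.4% of all protein-coding genes had none. The exception was HOXA13, a gene of the distal limb and hindgut, with 16.7% of its body covered in NT_UGI replicate 2 by one region at chr7:27195601-27196700 and 0% in the other 5 libraries. K562 had no region in any of the 38 members, against 68.2% of all genes, and 0% of each span. With all non-treated values at 0% but 1, no member could have both NT_UGI libraries above or below both WT libraries, or both NT_UGI_MMR above or below both NT_UGI libraries, so that UGI and MMR status could not be compared without drug. Over all genes these shares were 4.40%, 6.53%, 5.56% and 5.21%.

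After drug treatment, the HOXA, HOXB and HOXC spans were covered in every library, and HOXD was covered after 5FdUR but practically not after RTX. In the order 5FdUR_UGI, 5FdUR_UGI_MMR, RTX_UGI and RTX_UGI_MMR, with replicate 1 before replicate 2, the HOXA span had covered shares of 79.1%, 79.8%, 22.2%, 3.51%, 57.7%, 70%, 48.2% and 52.8%. The HOXB span had 78.2%, 56.2%, 20.1%, 4.94%, 61.0%, 77.5%, 51.8% and 66.1%. The HOXC span had 91.9%, 92.9%, 42.9%, 29.1%, 46.2%, 79.4%, 41.8% and 53.1%. All 8 drug-treated libraries were thus above all 6 non-treated ones in these 3 spans, with 5FdUR_UGI_MMR the lowest condition in each. For 5FdUR_UGI_MMR replicate 2 this rested on its low threshold of 0.13. The highest log2 value of its regions was 0.168 in HOXA, 0.224 in HOXB and 0.228 in HOXC. All of these were below the thresholds of the non-treated libraries, 0.25 to 0.33. The HOXD span had 32.7%, 86.8%, 75.3%, 73.6%, 0%, 0%, 1.32% and 0%. Here every 5FdUR library stood above every RTX library, and 3 of the 4 RTX libraries were at the level of the non-treated ones.

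The drug-treated minus non-treated difference was 51.5 percentage points for HOXA, 51.7 for HOXB and 59.7 for HOXC, against an SD among the 8 drug-treated libraries of 27.1, 26.4 and 24.8. By the exact permutation test over the 14 libraries, adjusted over 29427 bins of 100 kb and the 4 spans, these gave adjusted p of 0.0037, 0.0030 and 0.0013. Without 5FdUR_UGI_MMR replicate 2 the differences were 58.4, 58.4 and 64.0. Among the bins, 25.8% were called higher and 32.5% lower after drug. The HOXD difference was 33.7 percentage points with an SD of 38.9, and its adjusted p of 0.125 in the same exact test did not pass. When the longest regions up to 300 Mb alone were kept, the HOXA difference fell to 24.1 and its adjusted p rose to 0.062 in that exact test.

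Of the 38 members, 17 passed the same exact permutation test with adjusted p under 0.05 over all genes, all of them higher after drug, where 33.4% of all genes were called higher and 8.30% lower. These were 5 of 10 members of HOXA, 7 of 10 of HOXB, 5 of 9 of HOXC and 0 of 9 of HOXD. At an unadjusted p under 0.05, the exact test gave 28 members, 1 of them in HOXD. The median drug-treated minus non-treated difference over the 38 members was 47.2 percentage points, and over all genes 26.5. The classes did not overlap in 7 members, namely HOXA3, HOXB3, HOXB7, HOXC4, HOXC6, HOXC11 and HOXC13, all with the drug-treated libraries on top, against 15% of all genes in this direction and 5.11% in the other. This count rose to 13 without 5FdUR_UGI_MMR replicate 2. The count of called members was 10 when any 1 of the 6 non-treated libraries was left out, 11 without 5FdUR_UGI replicate 1 or without RTX_UGI replicate 2, and 0 when windows of 1000 bases either side of the gene start replaced the gene bodies. It was 1 with only regions of log2 of at least 0.35 kept, 5 with regions of at least 5 kb and 1 with the longest regions up to 300 Mb.

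In HOXA, the highest mean shares belonged to HOXA2 and HOXA13, the outermost of the members analysed. HOXA2, which patterns the second pharyngeal arch, had the highest mean share after drug, 79.0% ± 39.8 (SD, n = 8). It was covered in full in both 5FdUR_UGI and all 4 RTX libraries, and at 32% and 0% in the 5FdUR_UGI_MMR pair. HOXA13 followed with 65.0% ± 37.2 (SD, n = 8), at 93.9%, 15%, 81.8% and 0% after 5FdUR and at 86.5%, 77.2%, 100% and 65.2% after RTX. The lowest were HOXA9, a regulator of blood stem cells, with 21.6% ± 27.9 (SD, n = 8), and HOXA11, a gene of the forearm and uterus, with 31.3% ± 44 (SD, n = 8). HOXA9 was covered at 34.4%, 84.3%, 3.77% and 0% after 5FdUR and at 18.8%, 21.2%, 2.20% and 8.48% after RTX. HOXA11 was covered in full in both 5FdUR_UGI libraries, and at 36.2% or less in the other 6. HOXA2 and HOXA13 passed the exact permutation test, with adjusted p of 0.015 and 0.022. HOXA9 and HOXA11 did not, with adjusted p of 0.055 and 0.108.

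The promoters of the HOXA members that were covered in the most and in the fewest drug-treated libraries are shown with that of HOXB1, the one HOXB promoter listed, and of HOXD11, which with HOXD4 was the most covered HOXD promoter. They are the 250 bases before the RefSeq gene start on GRCh38.p14, written 5′ to 3′ along the gene with every T in capitals. HOXA2 lies on the minus strand at chr7:27102684-27102933, HOXA9 on the minus strand at chr7:27165538-27165787 and HOXB1 on the minus strand at chr17:48531012-48531261. HOXD11 lies on the plus strand at chr2:176107030-176107279. The HOXA9 and HOXD11 windows are within introns of the longer GENCODE gene models.
HOXA2 promoter: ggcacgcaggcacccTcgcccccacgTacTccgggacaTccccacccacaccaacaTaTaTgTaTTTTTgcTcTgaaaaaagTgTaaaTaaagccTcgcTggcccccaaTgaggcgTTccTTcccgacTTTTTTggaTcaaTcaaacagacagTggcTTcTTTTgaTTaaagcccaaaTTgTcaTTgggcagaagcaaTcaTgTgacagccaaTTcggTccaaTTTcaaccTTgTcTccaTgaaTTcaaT
HOXA9 promoter: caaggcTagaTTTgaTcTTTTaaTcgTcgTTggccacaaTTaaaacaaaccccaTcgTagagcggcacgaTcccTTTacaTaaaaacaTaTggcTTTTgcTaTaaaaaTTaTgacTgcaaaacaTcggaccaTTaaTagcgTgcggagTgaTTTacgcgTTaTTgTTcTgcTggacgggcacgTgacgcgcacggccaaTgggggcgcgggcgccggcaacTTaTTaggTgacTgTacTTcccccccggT
HOXB1 promoter: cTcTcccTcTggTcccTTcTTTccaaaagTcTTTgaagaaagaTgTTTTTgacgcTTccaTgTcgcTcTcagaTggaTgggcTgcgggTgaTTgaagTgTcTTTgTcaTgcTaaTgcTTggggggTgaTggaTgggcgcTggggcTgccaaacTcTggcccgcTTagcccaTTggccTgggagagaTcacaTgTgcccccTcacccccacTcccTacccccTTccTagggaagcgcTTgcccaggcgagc
HOXD11 promoter: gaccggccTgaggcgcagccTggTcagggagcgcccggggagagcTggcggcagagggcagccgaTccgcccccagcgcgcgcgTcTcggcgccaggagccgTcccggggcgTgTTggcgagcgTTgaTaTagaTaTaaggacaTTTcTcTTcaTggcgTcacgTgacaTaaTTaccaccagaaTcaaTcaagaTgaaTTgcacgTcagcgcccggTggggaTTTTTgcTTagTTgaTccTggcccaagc
The HOXA2 and HOXB1 windows touched a region in all 4 RTX and 2 of the 4 5FdUR libraries each. The HOXA9 window did so in 1 RTX and 1 5FdUR library. The HOXD11 window did so in all 4 5FdUR and in no RTX library. RefSeq sequences were found for 20 of the 38 members. Their upstream windows held a median of 20.5 CG pairs and 21.0% T, against 11 CG pairs and 20.8% T over 35116 promoters. None of the 20 touched a region in a non-treated library. All 8 HOXD promoters listed touched a region in at least 3 of the 4 5FdUR libraries and in no RTX library, while all 10 promoters listed for HOXA and HOXB touched one in at least 1 RTX library. The HOXC promoters listed, of HOXC4 and HOXC5, are the same window. It touched a region in 2 of the 4 5FdUR libraries and, like the HOXD promoters, in no RTX library.

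In HOXB, the outermost gene was the most covered. HOXB13, a gene of the prostate and tail bud, was covered in full in 7 of the 8 drug-treated libraries and at 0% in 5FdUR_UGI_MMR replicate 2, a mean of 87.5% ± 35.4 (SD, n = 8). HOXB4, known for expanding blood stem cells, had 68.6% ± 45.9 (SD, n = 8). It was covered in full in both 5FdUR_UGI libraries and 3 RTX libraries, at 49.0% in RTX_UGI_MMR replicate 1, and at 0% in both 5FdUR_UGI_MMR libraries. Both passed, with adjusted p of 0.020 and 0.036 in the exact permutation test. HOXB8 was the least covered member of all, with 15.4% ± 35.1 (SD, n = 8). It was covered in full in 5FdUR_UGI replicate 2, at 23% in RTX_UGI replicate 1, at 0.613% in 5FdUR_UGI replicate 1 and at 0% in the other 5 drug-treated libraries. HOXB9 had 31.0% ± 33.7 (SD, n = 8), with a range of 0% to 89.3%. Neither passed, with adjusted p of 0.389 and 0.072 in the exact permutation test.

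In HOXC, HOXC13, a gene of hair and nail, was covered in every drug-treated library, at 100%, 46.8%, 85.7% and 76.7% after 5FdUR and at 100%, 100%, 43.3% and 96.1% after RTX. Its mean was 81.1% ± 23.7 (SD, n = 8), with an adjusted p of 0.0066 in the exact permutation test. HOXC4, at the other end, had 67.0% ± 26.7 (SD, n = 8), with a lowest value of 24.8%, a median of 70.2% and a highest of 93.6% over the 8 libraries, and the same adjusted p of 0.0066. HOXC9 had the lowest mean, 30.5% ± 36.6 (SD, n = 8). It was covered at 53.7%, 100%, 46.7% and 41.9% after 5FdUR and at 0%, 0%, 0% and 1.62% after RTX. HOXC5, the next lowest, had 41.4% ± 39.1 (SD, n = 8), with values from 0% to 100% after either drug.

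In HOXD, 7 of the 9 members had every 5FdUR library above every RTX library. HOXD9 was covered at 90.1%, 100%, 100% and 100% after 5FdUR and HOXD11 at 91.0%, 100%, 90% and 100%, and both had 0% in all 4 RTX libraries. HOXD12 was covered at 100%, 100%, 77.5% and 100% and again at 0% after RTX. These 3 genes of the posterior series, which pattern limbs and the genital tract, had the highest shares of the cluster after 5FdUR. HOXD8 was covered at 40.2%, 100%, 30.2% and 46.5% after 5FdUR. HOXD1 and HOXD13, at either end of the span, were covered in 2 and 3 of the 4 5FdUR libraries, and replicate 1 of 5FdUR_UGI left both at 0%. After RTX, 8 of the 9 members had no region in any library, where 20.1% of all genes had none, and HOXD10 was covered at 11.7% in RTX_UGI_MMR replicate 1 by a region of 1300 bp. Of all genes, 2.34% combined no RTX region with a region in every 5FdUR library. Among the members these were 6, all in HOXD.

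Over all members, 8 had every 5FdUR library above every RTX library, where 7.83% of all genes did. The 7 in HOXD were joined by HOXC9. No member had every RTX library above every 5FdUR library, where 23.3% of genes did. The median 5FdUR minus RTX difference was 18.7 percentage points over the 38 members and -8.13 over all genes. By cluster, this median was 14.6 in HOXA, -9.56 in HOXB, 11.4 in HOXC and 72.1 in HOXD. The largest differences toward RTX were -42.0 in HOXA2 and -37.3 in HOXB4, whose libraries overlapped between the drugs. With 4 libraries a side the exact permutation test allows no p below 0.0286, and the smallest adjusted p of any gene was 0.0917, so that no gene passed after adjustment.
For the spans, the 5FdUR minus RTX difference was 66.7 percentage points in HOXD, with an unadjusted p of 0.0286 and an adjusted p of 0.116 over the bins and spans in the exact permutation test. Among 100 kb bins, 11.9% had every 5FdUR above every RTX library and 12.7% the reverse. HOXA, HOXB and HOXC gave differences of -11.0, -24.2 and 9.05, with unadjusted p of 0.629, 0.286 and 0.714 in the exact permutation test. Without 5FdUR_UGI_MMR replicate 2 the HOXA difference turned to 3.23, and without 5FdUR_UGI replicate 2 the HOXC difference turned to -0.528. Lower thresholds were used for 3 of the 4 5FdUR libraries. With regions of log2 of at least 0.35 kept in every library, the HOXD difference was 32.7 percentage points with an unadjusted p of 0.0286 in the exact permutation test, and 1 member in place of 8 had its libraries apart. With regions of log2 of at least 0.25 kept in every library, the HOXD difference was 57.4 percentage points with the same unadjusted p of 0.0286 in the exact permutation test, and 4 members had their libraries apart. When the longest regions up to 300 Mb alone were kept, the HOXD difference was 54.9 with an unadjusted p of 0.143 in the exact permutation test. In the regions of merged replicates, the HOXD span was covered at 83.2% and 84.4% after 5FdUR and at 0% in both RTX conditions.

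GC content differed little between the spans. It was 51.9% in HOXA, 49.3% in HOXB, 52.6% in HOXC and 51.0% in HOXD. In the 1448 bins of 100 kb with 50% to 55% GC, to which HOXD belongs, the mean covered share was 35.1% after 5FdUR, 51.3% after RTX and 0.164% without drug. Of these bins, 9.81% had a mean RTX share at or below that of HOXD, and 16.4% a mean 5FdUR share at or above it. For HOXA, 48.3% of bins of the same class were at or below its RTX share and 34.8% at or above its 5FdUR share, and for HOXC 46.1% and 18.4%. For HOXB, in the class of 45% to 50% GC, these were 63.7% and 39.7%.

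The clusters were next set against the 100 kb on either side of each span. These flanks held less GC than their spans. Before and after the span it was 41.9% and 46.7% at HOXA and 45.5% and 47.4% at HOXB. At HOXC it was 41.5% and 49.2%, and at HOXD 42.0% and 38.9%. The part of GC content in the differences below was not tested. After RTX, the HOXA, HOXB and HOXC spans were less covered than both flanks together. In the order RTX_UGI and RTX_UGI_MMR, the span minus flank difference was -16.6, -11.9, -31.8 and -32.6 percentage points for HOXA, -33.0, -22.2, -22.5 and -18.9 for HOXB, and -42.5, -16.8, -39.8 and -36.1 for HOXC. All 4 RTX libraries were lower in the span than in the flanks in each of these clusters. After 5FdUR, the HOXC and HOXD spans were more covered than both flanks together in all 4 libraries. The differences, in the order 5FdUR_UGI and 5FdUR_UGI_MMR, were 8.34, 48.8, 19.4 and 21.6 for HOXC and 23, 59.2, 48.3 and 34.7 for HOXD. For HOXA they were -9.70, 13.6, -2.71 and -7.51, and for HOXB -21.4, 0.487, 2.13 and 3.19. In HOXC, 5FdUR_UGI replicate 1 had 91.9% in the span, below the 93.6% of the flank after it. The HOXD span and flanks after RTX were both near 0%, with differences of -0.700 to 0.124.

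With both drugs pooled, the span minus flank difference did not pass the exact sign-flip test over the 8 libraries in any cluster. It was -12.4 in HOXA, -14.0 in HOXB, -4.63 in HOXC and 20.5 in HOXD, with unadjusted p of 0.0625, 0.0625, 0.703 and 0.109, where 0.0078 is the smallest possible. The drugs were therefore also compared with each other, which was decided after these values were seen. The 5FdUR minus RTX contrast of the span minus flank difference was 21.6 percentage points in HOXA, 20.2 in HOXB, 58.3 in HOXC and 41.6 in HOXD. In the exact permutation test of 4 against 4 libraries, the unadjusted p was 0.0286, the smallest it allows, for HOXA, HOXC and HOXD and 0.0571 for HOXB, and the p adjusted over the 4 spans was 0.038 and 0.057. When each 100 kb bin of the genome was set against its own flanks in the same way, 5.52% had every 5FdUR library above every RTX library. These bins were not matched to the spans for GC content. HOXA and HOXD lost the unadjusted call when single libraries were left out, with an exact p of 0.0571 without any 1 of the 5FdUR or RTX_UGI_MMR libraries for HOXA and without any 1 RTX library for HOXD. HOXA missed the threshold with flanks of 200 kb, at an unadjusted p of 0.143, while HOXB passed with them, at 0.0286, both in the exact permutation test.

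Over the wider neighbourhood, the RTX regions were missing from far more than the HOXD span. In each of the 10 windows of 100 kb around it, the mean RTX share was 1.2% or less. Around HOXA, by contrast, the mean RTX share ranged from 6.56% to 90.8%, and 5 of the 10 windows, all at least 200 kb away, were below the 57.2% of the span. Around HOXB, 1 window, the farthest after the span, was below it, with 60.4% against 64.1%, and around HOXC none was. At HOXD, the 5FdUR share was 67.1% in the span, 32.6% in the window before it and 19.0% in the window after it. The non-treated libraries showed the reverse, with 0% in the span, 12% and 6.75% in the adjacent windows, and 31.7% and 35.8% in the windows beyond those. LNPK and MTX2, the genes that flank the HOXD domain, fell after drug by 35.5 and 36.6 percentage points, both with an adjusted p of 0.0045 in the exact permutation test. MTX2 was covered at 31.0% to 45.0% in the 6 non-treated libraries, at 1.31% to 20.0% after 5FdUR and at 0% in all 4 RTX libraries. EVX2, a homeobox gene next to HOXD13, was covered at 50.8%, 83.1%, 65.7% and 98.5% after 5FdUR and at 0% after RTX, and unlike the HOXD members at 12.8% in WT replicate 2.

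The clusters were also compared with one another over the 8 drug-treated libraries. None of the 6 pairs passed the exact sign-flip test, with differences between -8.00 and 26 percentage points and adjusted p between 0.375 and 0.930. The means of the pairs differed between the drugs. HOXA minus HOXD had a mean of -20.9 over the 5FdUR libraries, with a range of -70.1 to 46.5, and of 56.8 over the RTX libraries, with a range of 46.8 to 70. HOXB minus HOXD had means of -27.2, with a range of -68.7 to 45.5, and of 63.7, with a range of 50.4 to 77.5. At least 1 5FdUR library thus had the sign of the RTX libraries in each of these pairs. No test is given for these differences, which were looked at after the values were seen.

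Within the clusters, the RTX shares were lowest in the middle paralog groups. The grouping below was made after the values were seen and is a description. Among the 29 members outside HOXD, the 11 of paralog groups 1 to 5 had mean RTX shares from 28.9% to 100%, with a median of 74.1%. The 14 of groups 6 to 11 had 0.406% to 49.2%, with a median of 20.8%, and the 4 of groups 12 and 13 had 60.6% to 100%, with a median of 83.6%. The corresponding medians after 5FdUR were 50%, 51.4% and 73.5%. Group 9 was the least covered after RTX, with a mean of 9.63% over HOXA9, HOXB9 and HOXC9, and group 13 the most covered, with 89.0%. Neighbouring members share regions, so these genes are not separate observations.

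MMR status went with the 5FdUR shares of HOXA, HOXB and HOXC. In 23 of the 38 members both 5FdUR_UGI_MMR libraries were below both 5FdUR_UGI libraries, where 30.7% of all genes were, and in none were they above, where 16.3% were. All 23 lay among the 29 members outside HOXD, with 9 in HOXA, 8 in HOXB and 6 in HOXC. The 5FdUR means of the deficient and proficient cells were 79.5% and 12.9% for the HOXA span, 67.2% and 12.5% for HOXB, 92.4% and 36% for HOXC, and 59.7% and 74.4% for HOXD. After RTX the proficient cells were below in 8 members, where 23.6% of genes were, and above in 0, where 15.1% were. With 2 libraries a side no test of these comparisons can reach 0.05. The drug effect in proficient minus that in deficient cells was -39.5 percentage points in HOXA, -31.7 in HOXB, -35.9 in HOXC and 7.68 in HOXD. Permuting MMR status within treatments gave unadjusted exact p of 0.056, 0.111, 0.111 and 0.833. The lowest thresholds belonged to 5FdUR_UGI replicate 2 at 0.14 and 5FdUR_UGI_MMR replicate 2 at 0.13, and the number of regions was highest in the latter. With only regions of log2 of at least 0.35 kept in every library, both 5FdUR_UGI_MMR libraries were below in 23 members. With at least 0.25 this held in 25, and with scaling to the genome share in 24. Whether the thresholds or the number of regions caused the MMR difference was not tested. Replicate 1 of 5FdUR_UGI_MMR, with a threshold of 0.20, had 22.2%, 20.1% and 42.9% of HOXA, HOXB and HOXC covered, below both 5FdUR_UGI libraries in each.

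The log2 values of the regions lay above the average of the library in some libraries and below it in others. In HOXD, the length-weighted mean log2 value was 0.333 and 0.450 in 5FdUR_UGI and 0.329 and 0.268 in 5FdUR_UGI_MMR, and the mean over all regions of the same libraries was 0.443, 0.302, 0.325 and 0.224. HOXD was thus above the mean of the library in 3 of the 4 and below it in 5FdUR_UGI replicate 1. In HOXA, the value was above the library mean in 2 of the 8 drug-treated libraries, in HOXB in 5 and in HOXC in 5. Some of the longest regions reached beyond a span and others lay inside it. In RTX_UGI replicate 2, one region of 290500 bp, chr12:54032401-54322900, ran from HOXC past SMUG1, a gene for a uracil-DNA glycosylase, and in 5FdUR_UGI replicate 2 the longest region at HOXD was 36300 bp, chr2:176096501-176132800, which reaches from HOXD12 to HOXD8 inside the span.

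Of 11 non-coding genes of the clusters that were listed, 9 lie inside a span and none had a region in a non-treated library. MIR10A, in HOXB, was covered in full in all 4 RTX and 3 of the 4 5FdUR libraries, while MIR10B, its paralog in HOXD, was covered in full in all 4 5FdUR and in no RTX library. MIR196A1, in HOXB, touched a region in 2 libraries of each drug and MIR196A2, in HOXC, in 3 of each, and MIR196B, in HOXA, in none. Mature sequences from RefSeq on GRCh38.p14 are given with the seed, bases 2 to 8, in capitals, since MIR10A and MIR10B, which are paralogs, differed in their RTX shares, while the miR-196 genes touched regions in as many libraries of one drug as of the other.
miR-10a-3p: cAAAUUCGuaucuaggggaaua
miR-10b-3p: aCAGAUUCgauucuaggggaau
miR-196a-5p: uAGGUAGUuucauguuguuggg
miR-196b-5p: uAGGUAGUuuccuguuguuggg
The seed of miR-196a-5p and miR-196b-5p is the same. For MIR10B only the 3p sequence was found, so the seeds of the 5p sequences of MIR10A and MIR10B were not compared. No relation between seeds and covered shares was tested. HOTAIR, a long non-coding RNA gene of HOXC, was covered at 41.9% to 100% after 5FdUR and at 35.5% to 100% after RTX. HAGLR, in HOXD, was covered at 28.5% to 79.7% after 5FdUR and at 0% after RTX.

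Related genes were listed for context. Of 19 neighbours of the clusters, 8 were called higher and 2 lower after drug, where 33.4% and 8.30% of all genes were. PRAC1, which lies beside HOXB13, rose by 93.8 percentage points and CALCOCO1, beside HOXC, by 72.4, both in the exact permutation test, with adjusted p of 0.0045 and 0.016. In 8 of the 19 every RTX library was above every 5FdUR library, a pattern of 0 of the 38 members and of 23.3% of all genes. Of 9 cofactors of HOX proteins, 1 was called higher, PKNOX1 with 53.1 percentage points, and 1 lower, MEIS1 with -6.89. PBX2 had 44.5 and MEIS2 -5.39, and neither passed.
Of 6 ParaHox genes, the relatives of HOX genes, 2 were called higher, close to the 33.4% of all genes, CDX1 by 82.5 and GSX2 by 68.8, while PDX1 had 38.5 and CDX4 -4.20 without passing. GSX1, GSX2, PDX1 and CDX2 had every 5FdUR library above every RTX library, where 7.83% of all genes did. GSX1 was covered in full in all 4 5FdUR libraries and at 0% after RTX. Of 21 other homeobox genes that stand in clusters, 7 were called higher and 0 lower, again close to the 33.4% of all genes. DLX1 rose by 80.7 and NKX1-2 by 75.0, and the smallest differences, 12.2 in IRX2 and 9.20 in IRX1, did not pass. In 12 of these 21 no RTX library had a region, where 20.1% of all genes had none, and in 5 every 5FdUR library was above every RTX library, where 7.83% did. Of 14 chromatin regulators of HOX genes, 7 were called higher and 0 lower. CBX2 rose by 78.0 and RING1 by 68.5, while BMI1 had 4.25 and KDM6A -3.26 without passing. In 6 of the 14 every RTX library was above every 5FdUR library, a pattern of 23.3% of all genes. The reverse held in 1, KDM6A, and in 7.83% of all genes. The median 5FdUR minus RTX difference was 69.3 percentage points in the ParaHox list, 36.1 in the other homeobox genes, 3.53 in the cofactors, -31.5 in the chromatin regulators and -49.3 in the neighbours, beside the -8.13 of all genes.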

How the data were processed

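U-DNA-Seq libraries of enriched DNA from 7 conditions of HCT116 cells and from K562 cells were analysed. The authors aligned reads to GRCh38 with BWA 0.7.17-r1194, processed alignments with SAMtools 1.9-50 and Picard, and computed log2 ratios of enriched over input coverage in 100 bp bins with deepTools 3.2.1, after smoothing. The deposited files hold intervals above a threshold set per library, each with a log2 value. They give no read counts, so depth could not be taken from them and no counting interval is given. Read numbers reported by the authors were not used here. Platforms differed between libraries, and which library ran on which is not given in the sources used here. Inputs and mock pull-downs were not used here.

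Covered shares of gene bodies (GENCODE 44) and spans were computed with Python 3.11.15, NumPy 2.4.6 and pandas 2.3.3. Groups were compared by two-sided exact permutation over libraries with Benjamini-Hochberg adjustment over 20033 genes, or over 29427 bins of 100 kb with the 4 spans. Scripts were tested on simulated data. Alternatives were a least log2 value for whole regions, whose borders stayed as called, a least region length and a total length. Others were scaling to the genome share, windows at gene starts, span and flank length, a replicate block, merged replicates and leaving out each library. Genes were named by rule as the 2 most and 2 least covered of each cluster, those with the largest drug differences and those covered without drug. Promoters of HOXC4 and HOXD1, which the rule also named, overlap exons by 250 and 173 bases and are not printed, while that of HOXA2, which overlaps by 3, is. The members, lists and tests were chosen with earlier results of these data known. One HOX gene is not reported here.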

Additional observations from a re-analysis of the deposited data

Results flagged for a closer look

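Among 84 groups of values examined, 8 held a library far from the others, where Dixon's 95% limit is passed by chance in about 1 in 20 groups of normally spread values, and always in a group with 1 value above 0. Without drug, NT_UGI replicate 2 stood alone with 1.10% of the HOXA span, 1.75% of the HOXB span and 16.7% of HOXA13 covered, and the other 5 non-treated libraries had 0%. After drug, 5FdUR_UGI replicate 2 stood above the rest in HOXA9 at 84.3% (next 34.4%), in HOXB7 at 85.3% (next 32.2%), in HOXB8 at 100% (next 23%) and in HOXD8 at 100% (next 46.5%). In HOXB13, 5FdUR_UGI_MMR replicate 2 stood alone at 0%, with the other 7 drug-treated libraries at 100%. The change of the HOXD span differed between the drugs, by 66.7 percentage points more after 5FdUR than after RTX (unadjusted p = 0.0286, exact permutation test of 4 against 4 libraries, the smallest it allows).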

How the results depend on the processing

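Of 229 values of the comparisons under settings other than leaving out a library, 194 kept their direction and their side of the threshold, and for counts stayed within 1.5 times. The 194 include values that could not change. These are the UGI and MMR counts without drug and the K562 shares, which stay at 0 when regions are removed or shares scaled. With regions of log2 of at least 0.35, 1 member was called and 0 had every drug-treated above every non-treated library. In 1 member 5FdUR was above RTX. RTX libraries were apart by MMR status in 2 members with proficient above and in 4 with proficient below. With regions of at least 5 kb these counts were 5 called, 0 apart and 2 with 5FdUR above RTX, and with the longest regions up to 300 Mb 1, 0 and 0. With log2 0.25, chosen after seeing the data, 0 were apart and 4 had 5FdUR above RTX. Windows at the gene start gave 0 called and 1 apart, and scaling to the genome share 1 member with RTX MMR proficient above. HOXB against its flanks passed the exact sign-flip test under log2 0.35 (-21.6), 5 kb (-18.6), 300 Mb (-24.5) and log2 0.25 (-13.7), and HOXD did with the span extended by 10 kb (21.7). HOXC, 5FdUR minus RTX, turned to -0.503 under both least log2 values. Under 300 Mb, the HOXA difference from non-treated fell to 24.1 and no longer passed, HOXA 5FdUR minus RTX turned to 16.6, HOXA minus HOXD turned to -3.12, HOXA minus HOXC passed at -15.9 after adjustment over the 6 pairs (exact adjusted p = 0.0469), and HOXD 5FdUR minus RTX (54.9) and the flank contrasts between drugs of HOXA (40.6) and HOXD (42.2) did not pass. The HOXA flank contrast did not pass with the extended span (20.8) or 200 kb flanks (21.6), while that of HOXB passed with both (22.1 and 30.3). The cause of these changes was not tested.

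Leaving out 1 library at a time gave 10 to 21 called members, 7 to 13 apart, and 8 to 9 with 5FdUR above RTX. Drug-treated minus non-treated ranged over 47.5 to 58.4 in HOXA, 47.9 to 58.4 in HOXB, 54.9 to 64.0 in HOXC and 26.1 to 38.5 in HOXD. 5FdUR minus RTX ranged over -22.2 to 3.23, -37.0 to -12.6, -0.528 to 20.8 and 60.2 to 78.2. HOXD lost its unadjusted call without any 1 RTX library, with an exact p of 0.0571. Span minus flanks ranged over -16.1 to -9.52, -16.5 to -11.3, -12.3 to 0.772 and 15 to 23.5, and HOXA passed unadjusted without 5FdUR_UGI replicate 2 (exact p = 0.0156). Its contrast between drugs ranged over 16.6 to 25.4, 17.3 to 26.1, 50.2 to 64.0 and 35.6 to 47.7. HOXA minus HOXB ranged over -3.71 to 1.55.

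Replicate numbers did not pair the samples: over 21 pairs of conditions the correlation of deviations ran from -0.283 to 0.210, with 2 over 0.1. With a replicate block, 13 members were called, 7 were apart, the same 3 spans passed, and HOXD 5FdUR minus RTX, 66.7, had an exact p of 0.0556. The number of libraries and the threshold of each library limit what can be seen, and a share of 0% does not show that uracil was absent.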
